A study of Mus musculus with 9 samples.

Results

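The nuclear genes for subunits of the 5 oxidative phosphorylation complexes were followed in mouse pre-B cells that lack the transcription factors IRF4 and IRF8. Members were taken by gene name from the single-symbol entries of the array annotation: Ndufa, Ndufb, Ndufc, Ndufs and Ndufv genes and Ndufab1, Sdha to Sdhd, Uqcr genes, Cyc1, Cox4 to Cox8 genes and Atp5 genes. The match by name used no measured values, but the members were chosen with earlier results of these data known. The names gave 83 genes of the 18193 genes with a single symbol, of which 36 belong to complex I, 4 to complex II, 9 to complex III, 17 to complex IV and 17 to complex V. They lie on 19 chromosomes.

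Total RNA was measured on 9 expression arrays, 3 in each of 3 groups, and every cell carried the IRF4,8 -/- genotype. In the low IL-7 group the null cells were cultured in 0.25 ng of the cytokine IL-7 per volume. In the group called IRF4 in high IL-7, IRF4 was put back into the null cells and they were cultured in 5 ng per volume. The high IL-7 group was null cells in 5 ng per volume with no IRF4 put back. The labels disagree on whether the volume is a millilitre or a microlitre, and the sources used here do not give how IRF4 was put back, whether an empty vector served as its control, how long the cultures ran or whether replicates came from separate animals. The p-values below therefore measure only the spread between these arrays.

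Oxidative phosphorylation is the last stage of respiration in the mitochondrion. Complexes I and II pass electrons from NADH and succinate to ubiquinone, complex III passes them to cytochrome c, and complex IV passes them to oxygen. The protons pumped along the way drive ATP synthesis through complex V, the ATP synthase. IL-7 is the cytokine that keeps early B-lineage cells dividing, and pre-B cells leave that state when its signal weakens.

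The arrays were checked before the members were compared. Array medians ran from 139.7 to 151.3 in intensity, and replicates of a group correlated with r from 0.986 to 0.996. The 18S ribosomal control was at 6.70 on the log2 scale in IRF4 replicate 3 and in high IL-7 replicate 1, against 7.76 to 8.51 in the other 7 arrays. An Irf4 probe set averaged 8.21 ± 0.15 in low IL-7, 10.63 ± 0.63 in IRF4 in high IL-7 and 8.17 ± 0.43 in high IL-7 (log2, SD, n = 3), and another averaged 12.91 ± 0.08 in low IL-7, 11.93 ± 0.11 in IRF4 in high IL-7 and 12.33 ± 0.15 in high IL-7. The null cells thus kept signal on Irf4 probe sets, and the sources used here do not give the deleted part of the gene. The 9 tested B-lineage markers summed to intensities of 67758 to 71594 in low IL-7, 43110 to 46357 in IRF4 in high IL-7 and 39980 to 48672 in high IL-7. These markers did not move alike between low and high IL-7. Rag1, Il7r, Blnk, Cd79b, Ebf1 and Vpreb1 were higher in low IL-7, by 4.67, 2.83, 1.42, 0.80, 0.67 and 0.25 on the log2 scale. Cd79a, Pax5 and Igll1 did not pass the test described below. Stromal markers, of which 8 of 10 passed the filter, summed to 2247 to 4005 in low IL-7, 2329 to 11777 in IRF4 in high IL-7 and 4209 to 16756 in high IL-7, and none of the 10 was at 0.

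Of the 83 members, 78 passed a filter that kept genes with a mean over all arrays at or above an intensity of 108, beside 12828 genes tested in all. The 5 members below it were Ndufa4l2 and Ndufb4 of complex I and Cox6b2, Cox7b2 and Cox8b of complex IV. Nearest the limit, Cox6a2 (163.9), Cox4i2 (218.1) and Cox7c (219.8) lay inside and Ndufa4l2 (93.3), Cox8b (87.6) and Cox6b2 (81.5) lay outside. Differences are given as log2(intensity + 16), with adjusted p-values from limma with Benjamini-Hochberg adjustment over all 12828 genes and a threshold of 0.05. Calls given for separate probe sets of a gene were instead adjusted over all probe sets past the filter other than controls.

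The upstream sequences of 3 members are shown first, because these genes encode the same mature protein and their levels in low IL-7 did not move alike. Atp5g1, Atp5g2 and Atp5g3 each encode subunit c, which forms the rotating ring of the ATP synthase in the inner membrane. Their products differ in the targeting peptide that is cut off in the mitochondrion. Each line gives the 250 bases before the RefSeq gene start in GRCm38.p6, 5′ to 3′ on the gene's own strand, which is the minus strand for all 3. Capitals mark matches to the 4 motifs named after the lines.
Atp5g1, chr11:96075632-96075881: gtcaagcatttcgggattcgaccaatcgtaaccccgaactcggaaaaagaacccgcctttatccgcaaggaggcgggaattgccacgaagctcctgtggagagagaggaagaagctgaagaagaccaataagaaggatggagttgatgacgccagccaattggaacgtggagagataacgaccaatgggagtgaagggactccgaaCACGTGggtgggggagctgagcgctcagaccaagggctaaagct
Atp5g2, chr15:102671048-102671297: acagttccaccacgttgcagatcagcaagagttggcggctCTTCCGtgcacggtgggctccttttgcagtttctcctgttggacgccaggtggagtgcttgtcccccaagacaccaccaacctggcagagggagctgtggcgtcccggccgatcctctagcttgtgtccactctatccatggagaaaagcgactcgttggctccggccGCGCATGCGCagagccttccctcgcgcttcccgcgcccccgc
Atp5g3, chr2:73911327-73911576: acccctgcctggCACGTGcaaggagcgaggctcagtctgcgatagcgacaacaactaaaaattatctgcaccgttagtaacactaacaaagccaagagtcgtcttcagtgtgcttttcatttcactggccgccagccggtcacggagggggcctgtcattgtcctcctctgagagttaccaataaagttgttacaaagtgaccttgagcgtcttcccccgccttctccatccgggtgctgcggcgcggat

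Each motif was searched on both strands of the 300-base window from 250 bases before to 50 bases after the start, for the 67 members and 27025 genes with an entry. The letters were CGGAAG for ETS-family factors, AAGATGGCG for YY1 and CACGTG for the E-box bound by MYC and related factors. The letters searched for NRF1 are the longer run in capitals in the Atp5g2 line. Overlap between different motifs was allowed. In the lines above, Atp5g1 holds CACGTG 44 bases before the start and Atp5g3 holds it 238 bases before the start. Atp5g2 holds the NRF1 letters 42 bases before the start and the ETS letters, on the opposite strand, 210 bases before it. A gene with several annotated starts was counted once, if any of its windows held the letters. CGGAAG was present in 29 of 67 members (43.3%), against 18.8% of all genes with an entry. The NRF1 letters were in 4 members (5.97%, against 1.07% of all genes with an entry), the YY1 letters in 6 (8.96%, against 1.64%) and the E-box in 6 (8.96%, against 8.09%). A match describes the letters only.

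The first question was how the subunit genes differ when IL-7 is lowered. In low IL-7 against high IL-7, 43 of the 78 tested members fell, 4 rose and 31 did not pass the test. Over all tested genes, 19.6% fell and 17.8% rose in the same comparison. The members' median log2 difference was -0.22, against 0.02 over all genes, and differences of single members ran from -1.38 to 0.61. Of the 78 members, 1 (Atp5g1) fell by at least 2-fold, against 4.11% of all genes. In 43 members all 3 low IL-7 arrays lay below all 3 high IL-7 arrays, which held for 24.8% of all genes, and in 4 members all lay above, which held for 25.5% of all genes. Among the low IL-7 arrays, replicate 1 was the highest in 65 of the 78 members. The same count was not made over all genes. Replicate 1 also had the highest mean intensity over all probe sets of its group, at 618 against 583 and 588. In RNA of whole cultures, less RNA per cell and fewer cells of a type cannot be told apart. Without high IL-7 replicate 2, the array with the highest stromal marker sum, 37 members fell and 3 rose, and without high IL-7 replicate 1, which had the low 18S signal, 36 fell and 4 rose. With high IL-7 replicate 2 left out, the stromal sums of the other high IL-7 arrays were 4209 and 9746. Both still lay above the sum of every low IL-7 array. The parts of the stromal and B-lineage marker differences in these counts were not tested.

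By complex, the counts were as follows. Complex II fell in 4 of 4 genes (median -0.44), complex III in 7 of 9 (median -0.37), complex I in 21 of 34 (median -0.29), complex V in 9 of 17 (median -0.16) and complex IV in 2 of 14 (median -0.07). The genes that rose were 2 of complex I, 1 of complex III and 1 of complex IV. These shares were not tested against each other. Of the 11 members with a mean intensity of at least 8000, 7 belong to complex IV and 4 of the 11 fell, against 39 of the 67 dimmer members. The 5 tested members with a mean intensity below 1000 also belong to complex IV: Cox6a2, Cox4i2, Cox7c, Cox7a1 and Cox8c. Of these, Cox7a1 fell and the others did not pass the test. The part of probe brightness in the split was not tested.

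**Figure D1:**
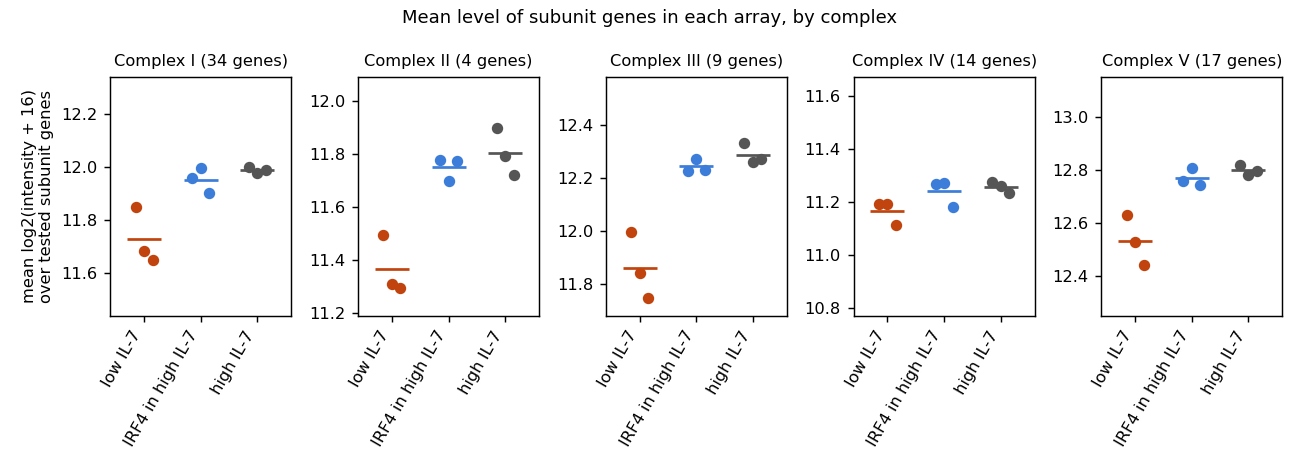
Mean log2(intensity + 16) over the tested genes of each complex in each array, with 1 panel per complex, points for arrays in replicate order and bars for group means. In complex III the low IL-7 arrays lie at 11.75 to 11.99, below the IRF4 in high IL-7 arrays at 12.23 to 12.27 and the high IL-7 arrays at 12.26 to 12.33, while in complex IV the 3 groups span only 11.11 to 11.28.

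Complex I takes electrons from NADH. Its core is shared with bacteria, and 6 of the nuclear core genes were tested: 5 of 6 fell, with a median of -0.47. Ndufs7, the core iron-sulfur subunit that hands electrons to ubiquinone, had intensities of 2733, 2311 and 2145 in low IL-7, 3485, 3781 and 3716 in IRF4 in high IL-7 and 4637, 4003 and 4071 in high IL-7. Every low IL-7 array lay below every array of the other groups. Its log2 difference between low and high IL-7 was -0.82 (SE 0.10, adjusted p = 7.17e-05).

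The other core genes that fell were Ndufs1, which carries several iron-sulfur clusters, at -0.58 (adjusted p = 0.00049), and Ndufv1, which holds the NADH-binding flavin site, at -0.46 (adjusted p = 0.00102). Its partner Ndufv2 stood at -0.48 (adjusted p = 0.00162) and Ndufs3 at -0.31 (adjusted p = 0.00577). Ndufs8, an iron-sulfur subunit of the arm that reaches ubiquinone, did not pass the test at -0.11 (adjusted p = 0.384), and its low IL-7 arrays (4400, 4071 and 3462) overlapped its high IL-7 arrays (4446, 4236 and 4179).

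The remaining 28 tested genes of complex I are mostly supernumerary subunits, which surround the core and are needed for its assembly or stability: 16 fell, 2 rose, and the median was -0.27. Ndufa9, at the junction of the peripheral and membrane arms, had 2784, 2403 and 2443 in low IL-7, 3696, 3702 and 3435 in IRF4 in high IL-7 and 3798, 3858 and 3816 in high IL-7. All other arrays lay above those of low IL-7, and the difference between low and high IL-7 was -0.59 (SE 0.07, adjusted p = 9.38e-05). Ndufb6, a membrane-arm subunit, had 3380, 3220 and 2981 in low IL-7, 4819, 4892 and 5014 in IRF4 in high IL-7 and 4866, 4382 and 4988 in high IL-7. It too was lowest in all low IL-7 arrays, with a difference of -0.57 (SE 0.07, adjusted p = 9.64e-05).

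Among the other falls, Ndufa5 stood at -0.69 (adjusted p = 0.000674) and Ndufab1, the mitochondrial acyl carrier protein that also serves fatty acid synthesis, at -0.60 (adjusted p = 0.000165). Falls between -0.52 and -0.21 were found in Ndufb2, Ndufa12, Ndufa10, Ndufb10, Ndufc1, Ndufv3, Ndufa4, Ndufa8, Ndufc2, Ndufb9, Ndufb5 and Ndufa7. Calls of Ndufv3, Ndufa7, Ndufa4, Ndufb9, Ndufc1 and Ndufa8 were lost in 6, 5, 4, 4, 3 and 2 of the alternative settings. Their adjusted p-values there reached 0.143, in Ndufv3. Over the 19 alternative settings, 16 to 22 genes of complex I fell. Ndufa4 is counted here by its name, although its product has been found in complex IV, and its low and high IL-7 arrays overlapped. Besides Ndufs8, the genes that did not pass the test were Ndufs4, Ndufb8, Ndufa1, Ndufb3, Ndufa3, Ndufa6, Ndufa2, Ndufs5, Ndufb7 and Ndufa13, with differences from -0.15 to 0.10. Another probe set of Ndufb7 fell, with a difference of -0.37.

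Both complex I genes that rose encode small membrane-arm subunits. Ndufb1 had 4055, 4162 and 3941 in low IL-7, 2883, 3029 and 3070 in IRF4 in high IL-7 and 2941, 2871 and 2954 in high IL-7. The low IL-7 arrays all lay above the other 6, and the difference between low and high IL-7 was 0.47 (SE 0.06, adjusted p = 0.000108). Ndufb11 had 7143, 7402 and 7447 in low IL-7, against 5792, 6423 and 6252 in high IL-7. Its groups did not overlap, and the difference was 0.25 (SE 0.07, adjusted p = 0.0117). Of its 3 probe sets past the filter, 2 rose and the other stood at -0.03.

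Complex II, succinate dehydrogenase, belongs to both the respiratory chain and the tricarboxylic acid cycle. Sdhd, a membrane anchor, had 3485, 3108 and 2854 in low IL-7, 4234, 4604 and 4244 in IRF4 in high IL-7 and 4833, 4546 and 4692 in high IL-7. No low IL-7 array reached the others, and the difference between low and high IL-7 was -0.58 (SE 0.08, adjusted p = 0.000188). Sdhb, the iron-sulfur subunit, fell with a difference of -0.30 (SE 0.07, adjusted p = 0.00474), and its low IL-7 arrays also lay below all others.

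Sdhc, the other anchor, had 1160, 1003 and 1021 in low IL-7, 1692, 1277 and 2055 in IRF4 in high IL-7 and 2186, 1583 and 1347 in high IL-7. The low IL-7 arrays were the lowest, but the highest values were those of IRF4 replicate 3 and high IL-7 replicate 1, the arrays with the low 18S signal. Its difference between low and high IL-7 was -0.65 (SE 0.19, adjusted p = 0.0226) over all arrays, and -0.46 with an adjusted p of 0.0742 without high IL-7 replicate 1. The call was also lost without low IL-7 replicate 2 (-0.61, adjusted p = 0.0719) and without low IL-7 replicate 3 (-0.62, adjusted p = 0.0716), and with each of these 3 arrays left out in turn complex II fell in 2 of 4 genes. Sdha, the flavoprotein that oxidises succinate, stood at -0.22 (adjusted p = 0.0417). Of its 3 probe sets, the 2 brighter ones fell (-0.22 and -0.26). The other was dim, with a mean intensity of 199, and did not pass the test at 0.23 (adjusted p = 0.117). The Sdha call was lost in 10 of the alternative settings, where its adjusted p reached 0.365.

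The falls in complex III took in electron carriers and structural subunits. Uqcr11, a small subunit, had 1939, 1528 and 1407 in low IL-7, 2795, 3094 and 2831 in IRF4 in high IL-7 and 3290, 3108 and 3223 in high IL-7. Its low IL-7 arrays lay well below the other 6, and the difference between low and high IL-7 was -0.99 (SE 0.11, adjusted p = 4.98e-05). Cyc1, cytochrome c1, which hands the electron to cytochrome c, had 3714, 3522 and 3161 in low IL-7, 5190, 5647 and 4617 in IRF4 in high IL-7 and 5157, 5530 and 5571 in high IL-7. Here too no low IL-7 array overlapped the others, and the difference was -0.64 (SE 0.08, adjusted p = 0.000168).

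Uqcrq, another small subunit of complex III, had 1968, 1693 and 1562 in low IL-7, 2859, 2953 and 2805 in IRF4 in high IL-7 and 3166, 2949 and 2961 in high IL-7. The difference of its brightest probe set was -0.80 (SE 0.09, adjusted p = 4.89e-05), with no overlap, and the other 2 probe sets, both dim, gave -0.27 and -0.07. Uqcrc1, a core protein of the matrix side, stood at -0.69 (adjusted p = 0.00173), with low IL-7 arrays at 2500, 2155 and 1977 and high IL-7 arrays at 4318, 3276 and 3210, which did not overlap. The gene of the other core protein, Uqcrc2, differed by -0.17 (adjusted p = 0.0381), and Uqcrfs1, the Rieske iron-sulfur protein, by -0.24 (adjusted p = 0.0359) with arrays that overlapped. Calls of Uqcrc2 and Uqcrfs1 were lost in 9 and 6 of the alternative settings, and with the replicate block over all arrays the adjusted p of Uqcrc2 was 0.0552.

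Uqcr10, also a small subunit, fell on all 3 of its probe sets, with log2 differences of -0.37 on the brightest and -1.27 on the dimmest. Uqcrb did not pass the test at -0.07 (adjusted p = 0.296) on its brightest probe set, while its other probe set fell (-0.22, adjusted p = 0.0129). It passed with the mean over its probe sets (adjusted p = 0.0338) and without low IL-7 replicate 1 (adjusted p = 0.0393). Uqcrh, the acidic hinge protein beside cytochrome c1, was the exception in direction, with 7181, 7352 and 6855 in low IL-7, 6911, 6946 and 6900 in IRF4 in high IL-7 and 6602, 6412 and 6469 in high IL-7. Its low IL-7 arrays lay above its high IL-7 arrays, but the difference was small at 0.13 (SE 0.04, adjusted p = 0.0328), and the call was lost in 9 of the alternative settings, where its adjusted p reached 0.141. With the same-numbered low and high IL-7 arrays as pairs, the adjusted p of Uqcrh was 0.0536.

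**Figure D2:**
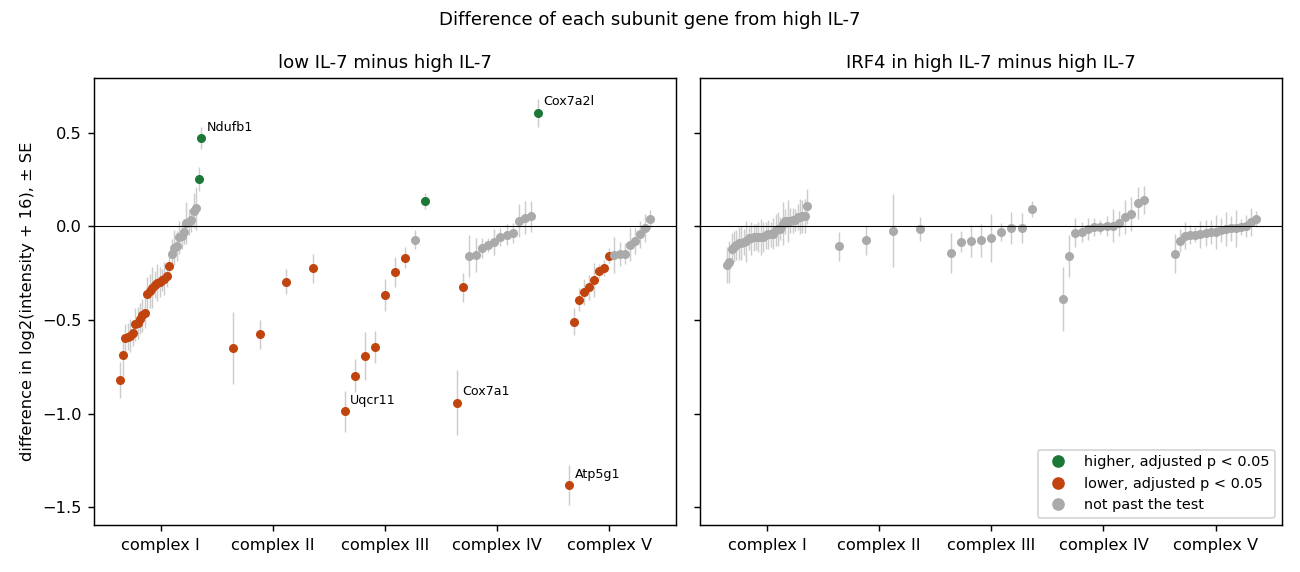
Difference of each tested member from high IL-7 in log2(intensity + 16), sorted within complexes I to V, for low IL-7 (left) and IRF4 in high IL-7 (right), with bars for the standard error and colours for the call. On the left 43 genes fell and 4 rose, with Atp5g1 lowest at -1.38 and Cox7a2l highest at 0.61, and on the right no gene passed the test.

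Complex IV, cytochrome c oxidase, had 11 genes of 14 that did not pass the test. Its nuclear subunits surround a catalytic core encoded by mitochondrial DNA, and several exist as tissue isoforms. Of the widely expressed isoforms, Cox4i1 had 10561, 10181 and 9807 in low IL-7, against 10725, 10777 and 10269 in high IL-7. These arrays overlapped, and the 95% interval of the difference was -0.16 to 0.05. Differences of Cox5b, Cox6a1, Cox6b1, Cox6c, Cox7a2, Cox7c and Cox8a lay between -0.16 and -0.04, and none passed the test. Cox7c was read from a dim probe set, with a mean intensity of 219.8. In alternative settings, Cox7a2 passed with the filter at the 60th percentile and under quantile normalization, and Cox6a1 passed without low IL-7 replicate 1.

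Cox5a, which with Cox4i1 is among the first nuclear subunits to join the core, was the widely expressed gene that fell. It had 8902, 8514 and 7910 in low IL-7, 9733, 10259 and 11061 in IRF4 in high IL-7 and 11856, 9696 and 10299 in high IL-7. It was lowest in the low IL-7 arrays, and the difference between low and high IL-7 was -0.33 (SE 0.08, adjusted p = 0.00693). All 3 of its probe sets fell. Its paralog in name, Cox5b, differed by -0.08 (adjusted p = 0.384).

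Of the 3 genes of the Cox7a family, 1 rose, 1 fell and 1 did not pass the test. Cox7a2l, whose product is a supercomplex factor that joins complexes III and IV, had 7616, 8145 and 7794 in low IL-7, 6061, 5965 and 5070 in IRF4 in high IL-7 and 5079, 5503 and 4888 in high IL-7. All low IL-7 arrays lay above the other 6, the difference between low and high IL-7 was 0.61 (SE 0.07, adjusted p = 0.000106), and its 3 probe sets gave 0.58 to 0.65. Cox7a1, the isoform of heart and skeletal muscle, was dim, with 177, 141 and 146 in low IL-7, 297, 252 and 170 in IRF4 in high IL-7 and 343, 314 and 280 in high IL-7. Its low IL-7 arrays lay below its high IL-7 arrays, with a difference of -0.94 (SE 0.17, adjusted p = 0.00151). Cox7a2, the isoform of most tissues, missed the threshold at -0.10 (adjusted p = 0.0624), with a 95% interval of -0.18 to -0.02.

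Striated-muscle markers, of which 3 of 9 passed the filter, summed to 829 to 855 in low IL-7, 867 to 1033 in IRF4 in high IL-7 and 857 to 875 in high IL-7, and their part in the Cox7a1 difference was not tested. The other tissue isoforms past the filter were Cox4i2 of lung, Cox6a2 of muscle and Cox8c of testis, which differed by 0.05, 0.03 and 0.05 and did not pass the test. No detection calls were used here, so whether these dim probe sets stood above background is not known.

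Complex V makes ATP in its F1 head, turned by the membrane ring. Atp5g1 had 2240, 1767 and 1624 in low IL-7, 4201, 4517 and 4484 in IRF4 in high IL-7 and 5025, 4663 and 4922 in high IL-7. The low IL-7 arrays lay far below the other 6, with a difference between low and high IL-7 of -1.38 (SE 0.10, adjusted p = 4.69e-06), and its level was 0.384 times that in high IL-7. Atp5g2 had 6104, 5524 and 5070 in low IL-7, 5660, 5543 and 5375 in IRF4 in high IL-7 and 6110, 5647 and 5417 in high IL-7. Its groups overlapped throughout, and its difference was -0.04 (adjusted p = 0.692), with a 95% interval of -0.20 to 0.12.

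Atp5g3 lay between its paralogs in the size of its change. It had 11601, 11613 and 10708 in low IL-7, 12637, 13038 and 13139 in IRF4 in high IL-7 and 13393, 13263 and 13360 in high IL-7. The low IL-7 arrays did not overlap the others, and the difference between low and high IL-7 was -0.24 (SE 0.04, adjusted p = 0.000685). The 95% intervals of the differences, -1.61 to -1.15 for Atp5g1, -0.32 to -0.15 for Atp5g3 and -0.20 to 0.12 for Atp5g2, do not overlap between Atp5g1 and either paralog. The 3 intervals are the only comparison made between the genes, since intensities of different probe sets have no common scale.

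**Figure D3:**
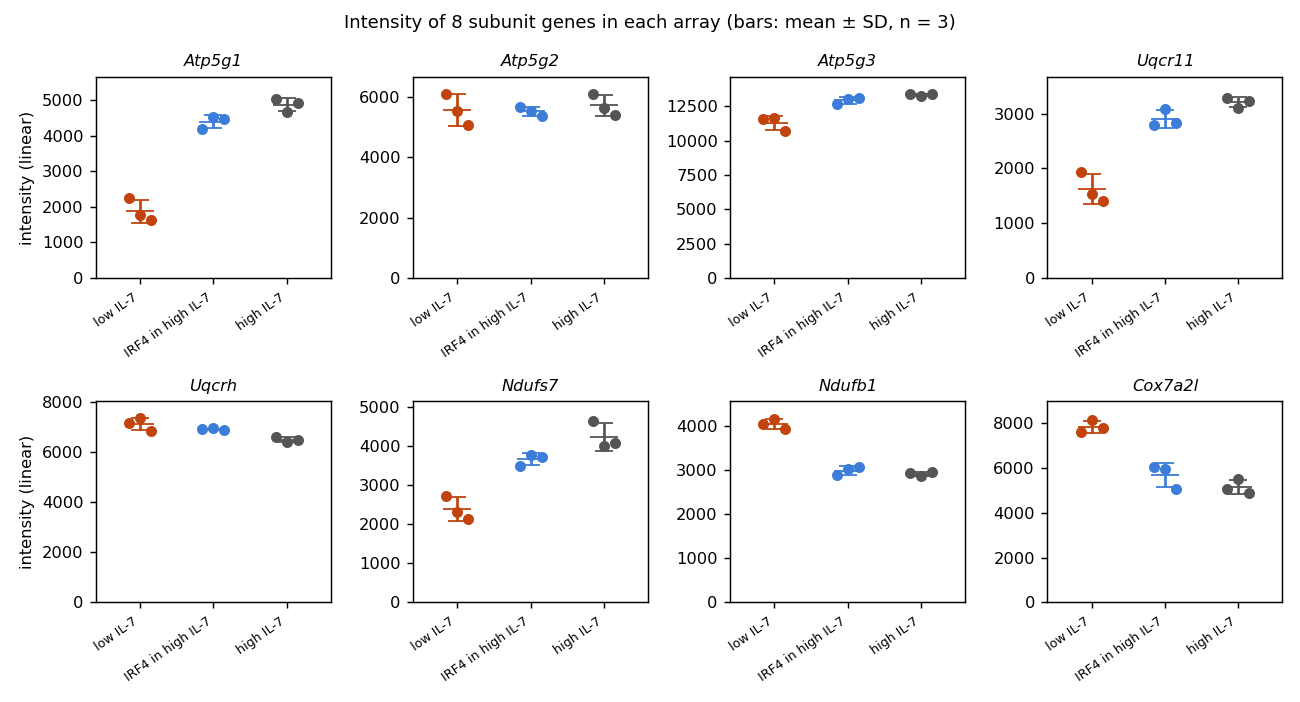
Linear intensity of 8 members in each array, with points in replicate order and bars for the mean ± SD of each group (n = 3). Atp5g1 lies at 1624 to 2240 in low IL-7, against 4201 to 4517 in IRF4 in high IL-7 and 4663 to 5025 in high IL-7, while the 3 groups of Atp5g2 overlap and Ndufb1 and Cox7a2l are highest in low IL-7.

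In the F1 head, 3 of 5 genes fell. Atp5b, the catalytic beta subunit, had 8000, 7469 and 7146 in low IL-7, 10116, 9969 and 11208 in IRF4 in high IL-7 and 11859, 9930 and 10488 in high IL-7. Every low IL-7 array was below the rest, with a difference between low and high IL-7 of -0.51 (SE 0.07, adjusted p = 0.000293). Atp5a1, the alpha subunit, stood at -0.33 (adjusted p = 0.00284) and Atp5e, the epsilon subunit, at -0.29 (adjusted p = 0.028). The Atp5a1 call was lost with the mean over its probe sets (adjusted p = 0.13), and the Atp5e call without low IL-7 replicate 2, low IL-7 replicate 3 or high IL-7 replicate 1, where its adjusted p reached 0.115.

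The gamma and delta subunits Atp5c1 and Atp5d did not pass the test. Atp5c1 differed by -0.15 (adjusted p = 0.262) on its brightest probe set, while its other probe set rose by 0.34. That other probe set was dim, with a mean intensity of 151 against 6535. Atp5d differed by -0.10 (adjusted p = 0.432), while its other probe set fell by 0.65. For both genes the call rests on the probe set used.

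Of the 12 remaining complex V genes, 6 fell. They were Atp5g1 and Atp5g3, Atp5md, a small membrane subunit known as DAPIT, at -0.39 (adjusted p = 0.000488), Atp5o, the oligomycin sensitivity protein that ties stator to head, at -0.35 (adjusted p = 0.00205), Atp5j2 at -0.22 (adjusted p = 0.00247) and the stator gene Atp5pb at -0.16 (adjusted p = 0.0134). The Atp5pb call was lost with no variance trend and without high IL-7 replicate 3, where its adjusted p reached 0.0885. Atp5g2, Atp5h, Atp5j, Atp5k, Atp5l and Atp5mpl did not pass the test, with differences from -0.15 to 0.04. The brightest probe set of Atp5k stood at -0.15 (adjusted p = 0.0999), while its other 2 probe sets fell (-0.19, adjusted p = 0.0327, and -0.35, adjusted p = 0.00306). Atp5k passed with the mean over its probe sets (adjusted p = 0.0106) and without high IL-7 replicate 1 (adjusted p = 0.042). Atp5h, a stator subunit, stood at -0.15 (adjusted p = 0.0715), and its adjusted p was 0.0406 with the same-numbered arrays of both groups as pairs. It also passed under quantile normalization and without low IL-7 replicate 1.

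The second question was how the subunit genes differ when IRF4 is put back in high IL-7, a comparison that uses the same high IL-7 arrays as the first. In IRF4 in high IL-7 against high IL-7, 0 of the 78 members passed limma's test, against 2.85% of all tested genes (1.89% higher and 0.951% lower). Limma's unadjusted p was under 0.05 in 1 of the 78 members, against 1933 of all 12828 tested genes. The median log2 difference was -0.03, against -0.01 over all genes. By complex the medians were -0.05 for I and II, -0.06 for III, -0.00 for IV, where 6 of 18 alternative settings turned the sign and gave at most 0.02, and -0.03 for V. All 3 IRF4 arrays lay below all 3 high IL-7 arrays in 7 members, against 11% of all genes, and above them in 2 members, against 10% of all genes.

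The 95% intervals bound what these arrays could have missed. They lay within 0.5 of 0 on the log2 scale in 77 of the 78 members and within 0.25 in 51, and their outermost bounds were -0.77 and 0.41. Cox7a1 had the smallest p and the widest departure, at -0.39 (SE 0.17, adjusted p = 0.325), and its IRF4 arrays overlapped its high IL-7 arrays. Ndufs7 stood at -0.21 (adjusted p = 0.343), and its 3 IRF4 arrays all lay below its high IL-7 arrays.

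The genes with the largest falls in low IL-7 did not pass the test when IRF4 was put back. Atp5g1 differed by -0.15 (SE 0.10, adjusted p = 0.574), with a 95% interval of -0.38 to 0.09. Uqcr11 differed by -0.14 (adjusted p = 0.602), Uqcrq by -0.07 (adjusted p = 0.754) and Cyc1 by -0.08 (adjusted p = 0.73). Genes that rose in low IL-7 also missed the test here: Cox7a2l differed by 0.14 (adjusted p = 0.426) and Ndufb1 by 0.03 (adjusted p = 0.837).

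The remaining comparison sets low IL-7 against IRF4 in high IL-7, which differ in both the cytokine and IRF4. It shares its low IL-7 arrays with the first comparison and its IRF4 arrays with the second. Of the 78 members, 38 fell, 3 rose and 37 did not pass the test, against 18.6% falling and 17.7% rising over all genes, and the median difference was -0.21, against -0.00 over all genes. Complex I fell in 18 of 34 (median -0.25), complex II in 3 of 4 (-0.38), complex III in 6 of 9 (-0.36), complex IV in 2 of 14 (-0.06) and complex V in 9 of 17 (-0.19). Without low IL-7 replicate 3, 0 of the 14 complex IV genes fell by limma's test. All low IL-7 arrays lay below all IRF4 arrays in 40 members, against 24.6% of all genes, and above them in 3, against 23.6% of all genes.

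Atp5g1 had the lowest p of the members here as well, with a difference of -1.23 (SE 0.10, adjusted p = 1.2e-05) between low IL-7 and IRF4 in high IL-7. The next falls were Uqcr11 at -0.85 (adjusted p = 0.000174), Uqcrq at -0.72 (adjusted p = 0.000114), Uqcrc1 at -0.63 (adjusted p = 0.00331), Sdhc at -0.63 (adjusted p = 0.028) and Ndufb6 at -0.62 (adjusted p = 6.48e-05). The 3 rises were Cox7a2l at 0.47 (adjusted p = 0.00073), Ndufb1 at 0.43 (adjusted p = 0.000221) and Ndufb11 at 0.23 (adjusted p = 0.0212). Uqcrh differed by 0.04 (adjusted p = 0.483) and Sdha by -0.15 (adjusted p = 0.16), and neither passed the test. Cox7a1 fell at -0.55 (adjusted p = 0.0284) with arrays that overlapped, its IRF4 arrays spreading over 297, 252 and 170. Calls of Sdhc, Cox7a1 and Ndufb11 were each lost without low IL-7 replicate 2 and without low IL-7 replicate 3. They were also lost without IRF4 replicates 1 or 3 for Sdhc, 1 or 2 for Cox7a1 and 3 for Ndufb11, with adjusted p-values that reached 0.103, 0.0917 and 0.0706.

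The genes around the chain were described with 10 further lists: assembly factors, fuel entry, carriers, regulators, mitochondrial gene expression, import and antioxidant enzymes. Over the 123 tested genes of these lists, 83 fell, 4 rose and 36 did not pass the test in low IL-7 against high IL-7, with a median of -0.49. Over all tested genes 19.6% fell and 17.8% rose in that comparison. With the same-numbered arrays as pairs, 7 of the list genes rose, and without high IL-7 replicate 3, 2 rose. In IRF4 in high IL-7 against high IL-7, 0 of the 123 passed limma's test, with a median of -0.08, where 2.85% of all tested genes passed. Limma's unadjusted p was under 0.05 in 17 of the 123, against 1933 of all 12828 tested genes. In low IL-7 against IRF4 in high IL-7, 79 fell and 4 rose, with a median of -0.41, against 18.6% falling and 17.7% rising over all genes. The lists were chosen with earlier results of these data known.

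Assembly factors build the complexes but are not part of them. For complex I, 11 of 14 fell and 1 rose, with a median of -0.64. Ndufaf4 had 584, 573 and 596 in low IL-7, 1649, 1898 and 1609 in IRF4 in high IL-7 and 1818, 2047 and 1990 in high IL-7, and its low IL-7 arrays lay far below the others. Its difference between low and high IL-7 was -1.71 (SE 0.09, adjusted p = 6.4e-07), beside -1.10 (adjusted p = 1.57e-05) for Ndufaf5 and -0.89 (adjusted p = 5.92e-05) for Ndufaf2, and Ndufaf3 rose at 0.34 (adjusted p = 0.0419). The Ndufaf3 call was lost in 7 of the alternative settings, where its adjusted p reached 0.144.

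For complexes II to V, 18 of 28 assembly factors fell and 1 rose, with a median of -0.44. Among those of complex IV, Sco2, which delivers copper, stood at -1.72 (adjusted p = 9.58e-06). Uqcc2, an assembly factor of complex III, stood at -1.06 (adjusted p = 2.33e-05) and Tmem70, of the ATP synthase, at -0.92 (adjusted p = 1.41e-05). Sdhaf2, which helps attach the flavin to Sdha, rose at 0.32 (adjusted p = 0.017). Without high IL-7 replicate 3 the adjusted p of Sdhaf2 was 0.0554.

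In the tricarboxylic acid cycle, which supplies NADH and succinate, 8 of 13 genes fell and none rose, with a median of -0.37. Idh3a, a subunit of isocitrate dehydrogenase, had 2057, 1787 and 1859 in low IL-7, 4025, 3860 and 3710 in IRF4 in high IL-7 and 4051, 3806 and 4059 in high IL-7. It was lowest in all 3 low IL-7 arrays, and its difference between low and high IL-7 was -1.06 (SE 0.07, adjusted p = 2.38e-06). The succinyl-CoA ligase genes Suclg2 and Suclg1 stood at -1.32 (adjusted p = 1.27e-05) and -0.74 (adjusted p = 4.07e-05).

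Of the pyruvate entry genes, 7 of 10 fell and 1 rose, with a median of -0.48. Dlat, a subunit of pyruvate dehydrogenase, stood at -0.82 (adjusted p = 8.27e-05). The kinases that switch this enzyme off differed in direction: Pdk1 stood at -1.20 (adjusted p = 0.000515) and Pdk3 at -0.84 (adjusted p = 0.0028), while Pdk2 rose at 0.72 (adjusted p = 2.77e-05). Pdk2 was dim, with 217, 205 and 208 in low IL-7, 123, 120 and 113 in IRF4 in high IL-7 and 128, 115 and 121 in high IL-7, and its low IL-7 arrays lay above all others.

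Among the electron carriers and coenzyme Q genes, 9 of 11 fell, with a median of -0.55. Cycs, cytochrome c itself, had 5055, 5368 and 5368 in low IL-7, 7966, 8113 and 8924 in IRF4 in high IL-7 and 7534, 8346 and 8491 in high IL-7. No low IL-7 array overlapped the others, and the difference between low and high IL-7 was -0.62 (SE 0.06, adjusted p = 2.54e-05). The coenzyme Q genes Coq4 and Coq2 stood at -1.15 (adjusted p = 1.59e-05) and -0.85 (adjusted p = 2.13e-05). Of the ATP, ADP and phosphate carriers, 4 of 7 fell, with a median of -0.27, led by the ADP/ATP carriers Slc25a4 at -0.78 (adjusted p = 5.8e-06) and Slc25a5 at -0.48 (adjusted p = 4.6e-05) and the outer-membrane channel Vdac2 at -0.46 (adjusted p = 0.000222).

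**Figure D4:**
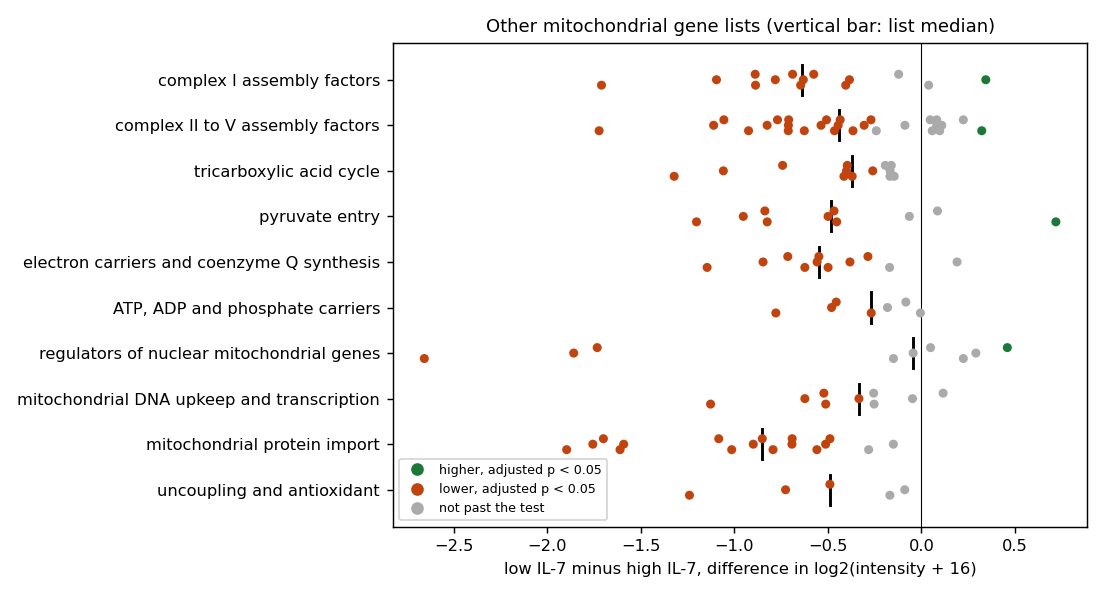
Difference between low and high IL-7 in log2(intensity + 16) for the tested genes of 10 related mitochondrial lists, with a point per gene coloured by its call and a vertical bar at the list median. The import list has the lowest median at -0.85 with 15 of 17 genes lower, and the regulators have a median of -0.04 with Myc at -2.66 and Esrra at 0.46.

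Of the regulators of nuclear mitochondrial genes, 3 of 9 fell, 1 rose, and the median was -0.04. That median turned to 0.02 under quantile normalization and to 0.00 with no filter on dim probe sets or without low IL-7 replicate 2, and 3 regulators rose with the same-numbered arrays as pairs. Myc, a growth regulator that binds the E-box, had 514, 673 and 488 in low IL-7, 2949, 2517 and 2735 in IRF4 in high IL-7 and 4565, 2768 and 3605 in high IL-7. The low IL-7 arrays lay far below the others, with a difference between low and high IL-7 of -2.66 (SE 0.17, adjusted p = 1.95e-06). The PGC-1 family coactivators Pprc1 and Ppargc1b stood at -1.86 (adjusted p = 1.74e-06) and -1.73 (adjusted p = 2.09e-06), and their partner receptor Esrra rose at 0.46 (adjusted p = 0.00412).

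The other factors whose letters were searched in the promoters did not pass the test: Nrf1 stood at -0.15 (adjusted p = 0.242), Yy1 at 0.05 (adjusted p = 0.537) and the ETS factor Gabpa at -0.04 (adjusted p = 0.729). Among members with a promoter entry, the E-box letters were in 5 of the 36 that fell and 1 of the 23 that did not pass the test. The ETS letters were in 14 of 36 and 13 of 23, the YY1 letters in 4 of 36 and 2 of 23, and the NRF1 letters in 1 of 36 and 3 of 23. These counts are a description.

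For the mitochondrial genome, 5 of 9 upkeep and transcription genes fell, with a median of -0.33. Lrpprc, which stabilises mitochondrial messenger RNA, stood at -1.13 (adjusted p = 5.47e-06), its partner Slirp at -0.62 (adjusted p = 6.82e-05) and Tfam, which packages the mitochondrial DNA, at -0.51 (adjusted p = 0.00179). Mitochondrial protein import brings every nuclear subunit into the organelle, and 15 of the 17 listed genes fell, with a median of -0.85. The matrix chaperonin Hspd1 had 5801, 5552 and 5385 in low IL-7, 10849, 11556 and 11325 in IRF4 in high IL-7 and 11652, 11826 and 12029 in high IL-7. Its low IL-7 arrays did not overlap the others, and the difference between low and high IL-7 was -1.08 (SE 0.04, adjusted p = 2.24e-07), beside -1.01 (adjusted p = 6.25e-07) for its partner Hspe1 and -1.76 (adjusted p = 6.01e-07) for the intermembrane chaperone Timm8a1. Of 5 antioxidant genes, 3 fell, with a median of -0.49: Sod2 at -1.24 (adjusted p = 7.72e-06), Txn2 at -0.73 (adjusted p = 0.00182) and Prdx3 at -0.49 (adjusted p = 0.000281).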

How the data were processed

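The authors deposited a table of linear intensity values for 45101 probe sets on 9 arrays. The sources used here do not give the method of summary or scaling. Per the labels' protocols, Trizol-extracted, column-purified total RNA was biotin-labelled. Values ran from 0 to 24761.9 and were not normalized further. Groups came from the sample titles. For the tests by gene, the 64 control probe sets and those with several gene symbols (932) or none (9160) were left out, and 34945 remained.

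Probe sets were kept with a mean over all arrays at or above the 40th percentile (intensity 108). Each gene was read from its brightest probe set, leaving 12828 genes. Group means over all 9 arrays were fitted to log2(intensity + 16) with limma 3.58.1 in R 4.3.3 (lmFit, eBayes with a trend), so the groups share an estimate of the spread. A gene was called at an adjusted p under 0.05 (Benjamini-Hochberg over all genes). Calls given for separate probe sets of a gene came from another fit of the same form. It took all probe sets past the filter except controls, whatever their number of symbols, and adjusted over these probe sets. The pseudocount understates changes of dim genes, and the number of arrays limits the precision. The fit by gene was tested on simulated data. Members and lists were chosen with earlier results of these data known. All 83 members matched RefSeq gene names (GRCm38.p6), used for names, chromosomes and promoters.

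Genes named with values were, by rule, the 6 largest called rises and falls of a comparison, the 3 smallest p of each complex, members called against their complex's direction, paralogs, members nearest the filter, members whose probe sets disagree, and up to 3 called genes a direction of each related list. Other members are named to account for each complex. Replicate numbers come from the sample titles. The main fit, which gave the counts and p-values of the comparisons, used no pairs. Deviations of the same-numbered low and high IL-7 arrays from their group means correlated at 0.55, 0.39 and 0.29. These numbers were taken as pairs in an alternative fit of the low and high IL-7 arrays alone. Deviations of the IRF4 arrays and the same-numbered arrays of either group correlated at -0.38 to -0.01. The IRF4 numbers entered only the planned replicate block over all arrays. Differently numbered arrays of different groups ran from -0.52 to 0.40. Low IL-7 replicate 3 correlated at 0.34 with high IL-7 replicate 2, above the 0.29 with its own number. The correlations therefore do not settle whether the numbers mark pairs. Alternatives changed the pseudocount, filter, normalization, variance trend, probe-set rule, samples in the fit and replicate block, or left out each array, and a fit of the low and high IL-7 pairs alone was added after seeing the data. Figures used matplotlib 3.10.9 in Python 3.11.15.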

Additional observations from a re-analysis of the deposited data

How the results depend on the processing

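No alternative turned the sign of the members' median in any comparison, or which of falls and rises was the more frequent among the members called. Over the 78 members and all settings, calls were lost 67 times and gained 12 times in low IL-7 against high IL-7, and lost 56 times and gained 14 times between low IL-7 and IRF4 in high IL-7. Against high IL-7, the members lower in low IL-7 ran from 38 to 44 and those higher from 3 to 5 over 10 other settings, and from 33 to 47 and 3 to 4 with each array left out. In low IL-7 against IRF4 in high IL-7 they ran from 35 to 39 and 2 to 4 over 9 other settings, and from 29 to 45 and 2 to 3 with each array left out. In IRF4 in high IL-7 against high IL-7, the count of members past limma's test was 0 in each setting run. Of the 47 calls in low IL-7 against high IL-7, 33 held in every setting and 14 were lost in some. Over all genes, the median of IRF4 in high IL-7 against high IL-7 turned to 0.01 under quantile normalization and to 0.00 with no filter, and without IRF4 replicate 1 its calls were 270 higher and 335 lower, against 243 and 122. In low IL-7 against high IL-7, calls over all genes were 2053 higher and 2051 lower without low IL-7 replicate 2, against 2287 and 2514. Calls over all genes between low IL-7 and IRF4 in high IL-7 were 2083 higher and 1943 lower without low IL-7 replicate 2 and 2251 and 2093 without IRF4 replicate 1, against 2275 and 2391, and the median turned to 0.00 without low IL-7 replicate 3 or IRF4 replicate 3. The pairs of low and high IL-7 arrays, as a replicate block chosen after seeing the data, gave 44 members lower and 3 higher. The planned replicate block over all arrays gave 42 and 4 there, 38 and 3 in low IL-7 against IRF4 in high IL-7, and 0 in IRF4 in high IL-7 against high IL-7. Of the members' calls, those of Uqcrh, Uqcrc2 and Atp5h changed with a block and no other did. The causes of these changes were not tested.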
